A study of Cucumis melo with 8 samples.

Results

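The last step of fruit development in the Hami melon, from 30 to 40 days after flowering (DAF), was described across all conserved miRNA families. The comparison was taken by the labelled stage and used 4 of the 8 small RNA libraries of the series, 1 library of each stage from each of 2 batches. The table lists 116 miRNA names that carry 71 distinct mature sequences of 30 families, and each sequence was counted once. All fruits were of the *Cucumis melo* variety ‘Flavor No. 4’, flowers were pollinated by hand, and the flesh mesocarp was sampled from fruits that the study calls premature (30DAF) and mature (40DAF). In the first of these batches (batch 1), RNA of 3 fruits per stage was mixed into 1 library and read single-end on the Illumina GAIIx. In the other (batch 2), grown a year later, each library came from 1 fruit and was read paired-end on the Illumina NextSeq. Season, sequencer and number of fruits therefore changed together between batches and cannot be told apart, while a change from 30DAF to 40DAF within a batch holds them fixed. The stages themselves are represented by 1 library in each batch.

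Plant miRNAs are cut from hairpin precursors by a Dicer-like enzyme and loaded into ARGONAUTE proteins, where they pair along nearly their whole length with target mRNAs and lead to their cleavage or to reduced translation. Most of the conserved families act on transcription factors of development, such as the SPL, NAC, MYB and HD-ZIP III proteins, and a few act on nutrient homeostasis or on the silencing machinery itself. Closely related members of a family can differ by a single base and still be products of different precursor genes. In melon, the mesocarp stores sugar and softens during the ripening stages.

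The sequences on which the comparison turned are shown as they stand in the deposited table, 5′ to 3′ and with T in place of U, with bases 2 to 8 (the seed) in capitals. The miR156 sequences are shown because all were higher at 40DAF in both batches, and they fall into 3 groups by seed, the first of which holds miR156a/c/d/i, miR156f and miR156g/h, the second miR156b and miR156e, and the third miR156j. However, miR156a/c/d/i lies wholly within miR156j, and miR156f wholly within miR156b. The seeds of these pairs differ through added bases at the 5′ end.
miR156a/c/d/i: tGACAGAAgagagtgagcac
miR156f: tGACAGAAgatagagagcac
miR156g/h: tGACAGAAgagagggagcac
miR156b: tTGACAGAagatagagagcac
miR156e: tTGACAGAagatagagggcac
miR156j: gTTGACAGaagagagtgagcac
The next sequences were lower at 40DAF in both batches and include the miR166 and miR398 sequences that fell, with miR166g shown because it lies wholly within miR166a/b/c/d/f/h and shares its seed, and with the miR398 pair sharing a seed of its own.
miR166a/b/c/d/f/h: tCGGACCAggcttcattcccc
miR166g: tCGGACCAggcttcattccc
miR398a: tGTGTTCTcaggtcgcccctg
miR398b: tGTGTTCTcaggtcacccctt
The remaining sequences are miR169k and miR169p/q/s, which share a seed and differ by a single base, and miR530b, which shares its seed with no other sequence of the table.
miR169k: tGAGCCAAggatgacttgcct
miR169p/q/s: tGAGCCAAagatgacttgcct
miR530b: tGCATTTGcacctacacctt
Counted from the 5′ end, miR156g/h differs from miR156a/c/d/i by T14G, miR156e from miR156b by A17G, and miR169p/q/s from miR169k by G9A, where the first letter belongs to the second-named sequence of each pair. The authors allowed 1 mismatch when reads were matched, so a read could match both members of such a pair. The counts of 2 members can still be far apart. At 30DAF in batch 1, miR396b had 284009 reads and miR396e, 1 base away, had 128. How reads that match both members were assigned is not given in the sources used here and was not tested. There are 25 pairs 1 base apart among the 71 sequences, and 4 of the 7 sequences past the threshold described next belong to one.

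Values are the authors' TPM, here the reads of a miRNA over a total for its library on a fixed scale, with no division by length, and changes are differences of log2(TPM + 5), which understate the change of low values. The totals recovered from the TPM steps of single reads were 410945 reads at 30DAF and 233130 at 40DAF in batch 1, and 105077 and 134912 in batch 2. These totals are far below the clean reads that the study gives for the libraries, so the values are shares of a subset of the reads, and which reads make it up is not given in the sources used here. A count of 3 reads, taken as the detection floor, corresponds to 7.30 and 12.9 TPM in batch 1 and to 28.6 and 22.2 TPM in batch 2. The 71 sequences took 88.3% and 87.2% of the total at 30 and 40DAF in batch 1 and 50.6% and 49.98% in batch 2. The table holds miRNAs alone, so the mesocarp label was not checked against marker transcripts, and fewer cells of a type cannot be told apart from less RNA per cell.

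With limma, at a p under 0.05 before adjustment and a change of over 1.5-fold, 7 of 71 sequences (9.86%) differed between 40DAF and 30DAF. Of these, 3 rose (4.23%), miR156g/h, miR156e and miR530b, and 4 fell (5.63%), miR166a/b/c/d/f/h, the miR398 pair and miR169p/q/s, the last of these on 1 read in each library of 30DAF. None passed on p values adjusted by Benjamini-Hochberg over the 71 sequences in limma, and none in voom on recovered reads, where 4 passed unadjusted. In what follows, rose and fell are used of sequences past the unadjusted threshold alone, and each spread is that between 2 libraries of different seasons. With 2 libraries against 2 an exact permutation test cannot give a p under 0.333, so none is given. The count depended on single libraries, being 3 without the batch 2 library of 30DAF and 8, all of them higher, without the batch 1 library of 40DAF.

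Over 3 reads in at least 1 library of each batch were found for 42 sequences. Within the batches, 12 of these were higher at 40DAF in both and 13 were lower in both, while 13 were lower in batch 1 and higher in batch 2 and 4 were the reverse. The 12 that were higher in both were the 6 miR156 sequences, miR159a, miR164a, miR164c/d, miR169k, miR393a/b/c and miR530b. The 13 that were lower in both included both miR398 sequences, 2 of the miR166 sequences, miR162, miR168, miR394a/b and miR396b. The other 29 sequences were at or under 3 reads in both libraries of a batch, 17 of them in all 4 libraries, so their changes could not be compared between the batches at this depth. Over all 71 sequences the median change was -0.34 in batch 1 and 0.20 in batch 2. The changes of the batches had a Pearson correlation of 0.364 across the 71 sequences, which share their libraries and may share some reads. It was 0.483 across the 42 sequences with more reads.

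**Figure D1:**
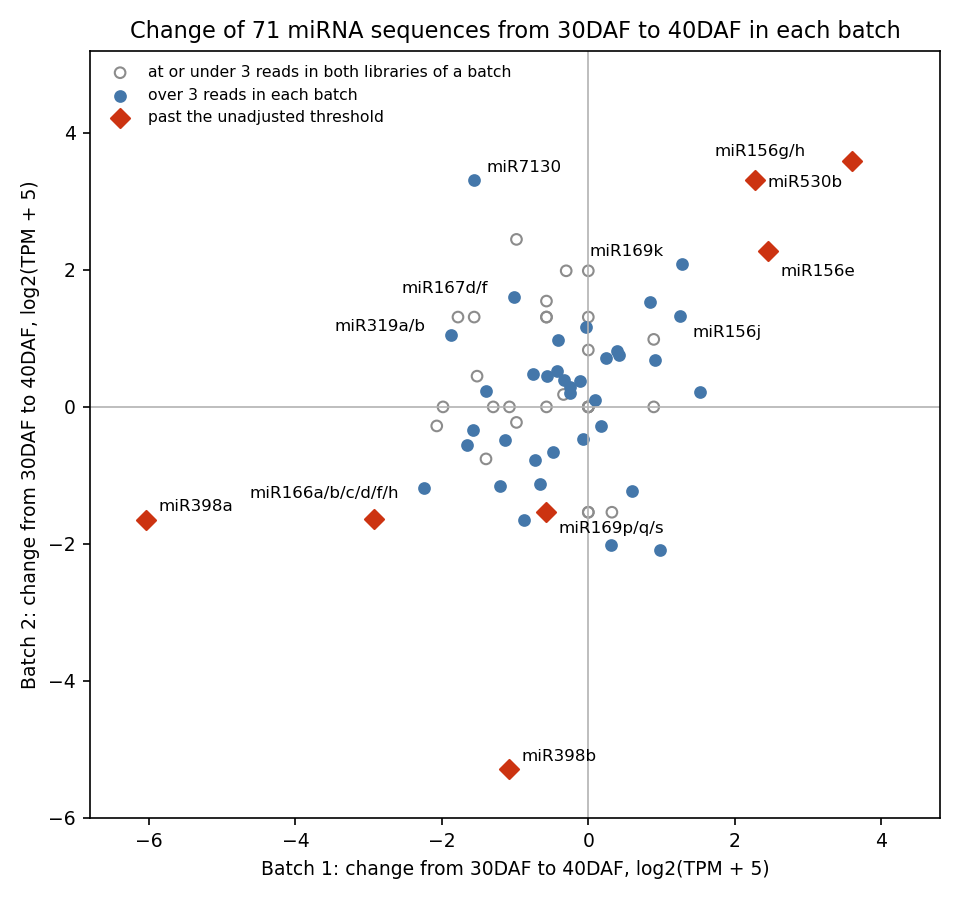
Change of each of the 71 sequences from 30DAF to 40DAF on log2(TPM + 5), with batch 1 on the x axis and batch 2 on the y axis. Open circles are sequences at or under 3 reads in both libraries of a batch, and red diamonds are the 7 past the unadjusted threshold, of which miR156g/h lies at the upper right and miR398a at the far left.

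Counting error was judged within each batch from an exact (Clopper-Pearson) 95% interval of the ratio of 40DAF to 30DAF, which covers counting error only, since PCR copies are not independent molecules. The interval lay above 1 for 11 sequences and below 1 for 17 in batch 1, and above 1 for 16 and below 1 for 7 in batch 2. It lay on the same side in both batches for 7 higher sequences (miR156e, miR156g/h, miR156j, miR159a, miR164c/d, miR169k and miR393a/b/c) and 4 lower ones (miR162, miR166a/b/c/d/f/h, miR394a/b and miR396b). For 6 sequences it lay on opposite sides. Both 40DAF libraries were above both 30DAF libraries in TPM for 11 sequences (15.5%) and below them for another 11 (15.5%). If the 4 libraries were interchangeable and their values untied, full separation in either direction would have a probability of 0.333. The 2 shares cannot be compared with it, since they were taken over all sequences, including some that could not separate. For example, miR160d, miR169e/n, miR399f and miR854 had no read in any of the 4 libraries.

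The miR156 family, which guides the cleavage of SPL (squamosa promoter binding protein-like) transcription factors, was higher at 40DAF in both batches for all 6 of its sequences. In Arabidopsis this family holds the shoot in its juvenile phase, and in tomato an SPL gene is required for ripening. miR156g/h had 24.3 TPM (10 reads) at 30DAF and 352 TPM (82 reads) at 40DAF in batch 1. In batch 2 it had 9.52 TPM (1 read) and 170.5 TPM (23 reads). Both mature libraries were thus far above both premature ones, with means of 16.9 ± 10.5 and 261 ± 128 TPM (SD, n = 2). The ratio of 40DAF to 30DAF was 14.5 (95% counting interval 7.47 to 31.3) in batch 1 and 17.9 (2.91 to 738) in batch 2, the latter set against a single read. Its log2 fold change of 3.60 (SE 0.83) had the smallest p of the 71 sequences in limma, with an adjusted p of 0.278. With the batch as a replicate block the SE was 0.61 and the limma adjusted p 0.0761. The call held in all 19 alternatives fitted to it, including without each of the 8 libraries in turn, with adjusted p values of 0.0436 to 0.741.

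miR156e had 19.5 TPM (8 reads) at 30DAF and 129 TPM (30 reads) at 40DAF in batch 1. In batch 2 it had 19.0 TPM (2 reads) and 111 TPM (15 reads). The batches gave nearly the same levels at each stage, and the stages did not overlap, with means of 19.2 ± 0.311 and 120 ± 12.4 TPM (SD, n = 2). However, the 30DAF level in batch 2 was under the floor, and 1 read there is 9.52 TPM. The small SD at 30DAF is thus finer than these counts can resolve. The ratio was 6.61 (95% counting interval 2.96 to 16.7) in batch 1 and 5.84 (1.36 to 52.6) in batch 2. In limma the log2 fold change was 2.36 (SE 0.68, adjusted p = 0.415), and this call also held in all 19 alternatives, with adjusted p values of 0.0436 to 0.741.

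The other 4 sequences of the family did not pass the threshold. miR156j had 241 and 583 TPM (99 and 136 reads) at 30 and 40DAF in batch 1, and 133 and 341 TPM (14 and 46 reads) in batch 2. The counting intervals of its ratio, 1.86 to 3.17 and 1.38 to 5.04, lay above 1 in both batches, but its log2 fold change of 1.29 (SE 0.81) had an adjusted p of 0.877 in limma. For miR156a/c/d/i, miR156b and miR156f the log2 fold changes were 0.79, 0.87 and 1.19, and in batch 2 their counting intervals included 1. miR156f had 1 to 5 reads in each of the 4 libraries. Within the family the balance between close relatives differed between the stages. The TPM of miR156g/h was 0.217 times that of miR156a/c/d/i at 30DAF and 1.64 times at 40DAF in batch 1, and 0.1 times and 1.10 times in batch 2. Likewise, miR156e had 0.0976 times the TPM of miR156b at 30DAF and 0.221 times at 40DAF in batch 1, and 0.0588 and 0.294 times in batch 2. Each of these pairs is 1 base apart, so a read with a mismatch may match both members. How such reads were assigned, and the part this plays in the balance, was not tested.

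miR172, which acts on AP2 transcription factors and in Arabidopsis opposes miR156 in phase change, showed no such joint direction. All 4 of its sequences were lower at 40DAF in batch 1 (by 0.34 to 0.75 on the log2 scale) and higher in batch 2 (by 0.18 to 0.53). The most abundant of them, miR172b/c, had 394 and 232 TPM in batch 1 and 343 and 482 TPM in batch 2, and its log2 fold change was -0.13 (SE 0.56). None of the 4 passed the threshold, and miR172e had 2 and 3 reads in batch 2.

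Of the 4 miR166 sequences 1 fell at 40DAF, against 4 of all 71 (5.63%). The targets of this family are the HD-ZIP III transcription factors of vascular and organ polarity. miR166a/b/c/d/f/h had 586 TPM (241 reads) at 30DAF and 72.9 TPM (17 reads) at 40DAF in batch 1. It had 542 TPM (57 reads) and 170.5 TPM (23 reads) in batch 2. The levels at 30DAF were close between the batches, at 564 ± 31.1 TPM (SD, n = 2), and both 40DAF libraries were below them, at 122 ± 69.0 TPM. It was 8.04-fold lower (95% counting interval 4.92 to 14.04) in batch 1 and 3.18-fold lower (1.93 to 5.41) in batch 2. The log2 fold change was -2.28 (SE 0.82, limma adjusted p = 0.415). The call was lost without either library of 30DAF and without the batch 1 library of 40DAF. With each of the 8 libraries left out in turn the log2 fold change was between -2.87 and -1.70. miR166g, which is the same sequence without its last base, had 38.9 and 4.29 TPM (16 and 1 reads) in batch 1 and 57.1 and 22.2 TPM (6 and 3 reads) in batch 2. Its log2 fold change of -1.72 (SE 1.47) did not pass. The other 2 sequences of the family, miR166e and miR166i, had at most 3 reads in each of the 4 libraries.

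The miR398 sequences, which act on copper/zinc superoxide dismutases and are part of the response of plants to copper supply, had at most 2 reads in each library of 40DAF. miR398a had 606 TPM (249 reads) at 30DAF and 4.29 TPM (1 read) at 40DAF in batch 1. In batch 2 it had 57.1 TPM (6 reads) and 14.8 TPM (2 reads). Both mature libraries were at or under the floor of 3 reads and below both premature ones, but the premature level differed widely between the batches. It was 141-fold lower (95% counting interval 25.1 to 5602) in batch 1, while in batch 2 the 3.85-fold lower value had an interval of 0.689 to 39.0 and was not beyond counting error. The log2 fold change was -3.84 (SE 1.56, limma adjusted p = 0.459), and 11 of 19 alternatives kept the call.

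miR398b showed the reverse weight of the batches. It had 14.6 TPM (6 reads) at 30DAF and 4.29 TPM (1 read) at 40DAF in batch 1, and 190.3 TPM (20 reads) and no read in batch 2. In batch 2, with no read at 40DAF, the 95% counting interval of the fold decrease began at 6.34. In batch 1 the 3.40-fold lower value had a counting interval of 0.413 to 157. Its log2 fold change of -3.18 (SE 1.14, limma adjusted p = 0.415) was past the threshold in 12 of 19 alternatives. Among the libraries left out, the calls of both sequences ended without either library of 10DAF or of 40DAF, that of miR398a also without the batch 1 library of 30DAF, and that of miR398b also without the batch 2 library of 30DAF and the batch 1 library of 20DAF. At -5.49 to -2.19 for miR398a and -4.84 to -1.52 for miR398b, the log2 fold changes were negative throughout.

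Summed as a family, miR398 had 621 TPM (255 reads) at 30DAF and 8.58 TPM (2 reads) at 40DAF in batch 1 and 247 TPM (26 reads) and 14.8 TPM (2 reads) in batch 2. The family was 72.3-fold lower (95% counting interval 19.8 to 600.5) in batch 1 and 16.7-fold lower (4.18 to 145) in batch 2, so that the sum was beyond counting error in both batches where each sequence was so in a single batch. The other miRNAs of the copper response, miR397 and miR408, act on laccases and on plantacyanin. miR408 had 199 and 26 reads (484 and 112 TPM) at 30 and 40DAF in batch 1, where it was 4.34-fold lower (2.88 to 6.81), but 2 reads at each stage in batch 2. miR397 had 7 and 3 reads in batch 1 and 0 and 2 in batch 2. Neither passed the threshold, so that 2 of the 4 sequences of the copper group fell, against 4 of all 71 (5.63%), and none rose. The median log2 fold change of the 4 was -2.18 against -0.06 over all 71 sequences, and it lies between the 2 miR398 sequences and miR408 with -1.17, while miR397 had 0.84.

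**Figure D2:**
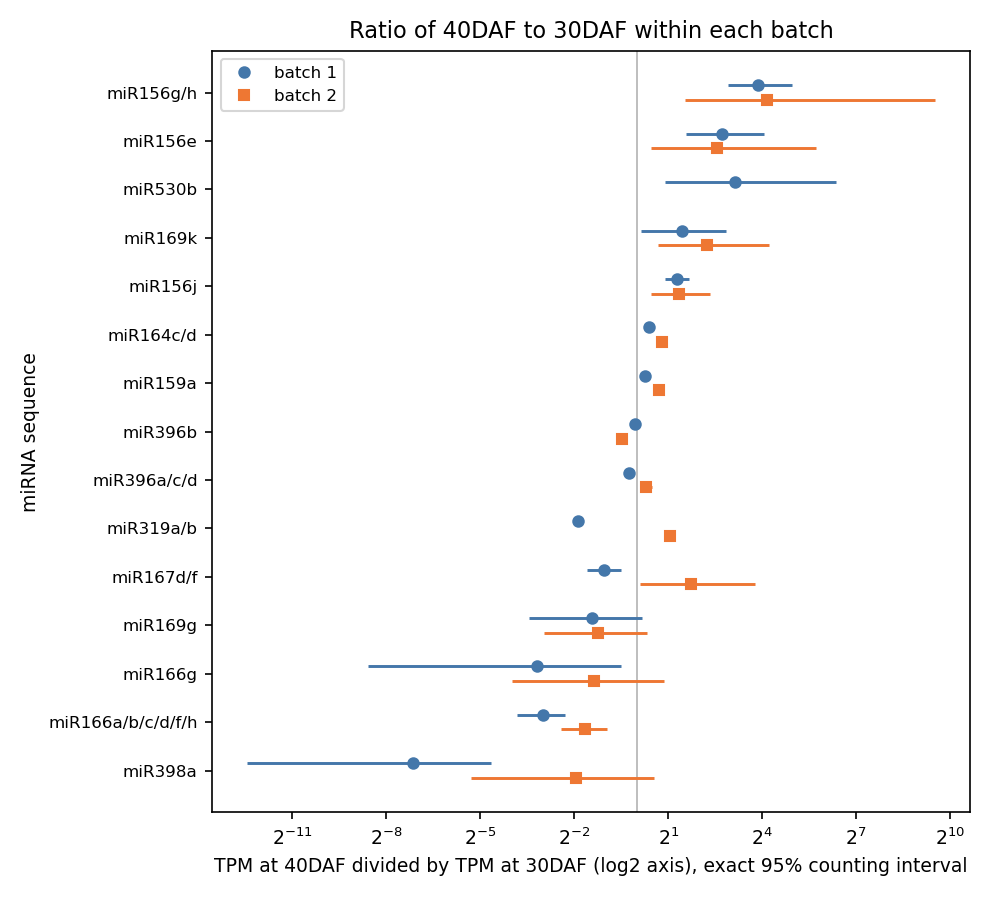
TPM at 40DAF divided by TPM at 30DAF on a log2 axis for 15 sequences, in batch 1 (circles) and batch 2 (squares), with lines for the exact 95% counting interval. The intervals of miR156g/h and miR156e lie above 1 and those of miR166a/b/c/d/f/h below 1 in both batches, those of miR319a/b and miR167d/f lie on opposite sides, and the batch 2 point of miR530b is missing because it had no read at 30DAF.

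The miR169 family targets NF-YA transcription factors, the subunits of nuclear factor Y that bind the CCAAT box, and its 10 sequences had no shared direction. miR169k had 21.9 TPM (9 reads) at 30DAF and 60.1 TPM (14 reads) at 40DAF in batch 1, and 38.1 TPM (4 reads) and 178 TPM (24 reads) in batch 2. Both mature libraries were above both premature ones, and the ratio was 2.74 (95% counting interval 1.11 to 7.18) in batch 1 and 4.67 (1.61 to 18.5) in batch 2. The log2 fold change of 1.68 (SE 0.86, limma adjusted p = 0.761) did not pass. With the batch as a replicate block it passed the unadjusted threshold (limma adjusted p = 0.384). Its relative miR169p/q/s was called lower (log2 fold change -1.05, SE 0.41, limma adjusted p = 0.446) on 1 read at 30DAF and none at 40DAF in each batch, all under the floor, so that no change was detectable at this depth. That call was lost with the replicate block (limma adjusted p = 0.415).

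Other miR169 sequences had higher counts. miR169g had 46.2 and 17.2 TPM (19 and 4 reads) in batch 1 and 104.7 and 44.5 TPM (11 and 6 reads) in batch 2, lower in both, with a log2 fold change of -1.18 (SE 0.80). The most abundant member, miR169t, which shares its seed with miR169k, had 516 and 781 TPM in batch 1 and 666 and 282 TPM in batch 2. Its counting intervals lay on opposite sides of 1, at 1.23 to 1.85 in batch 1 and 0.277 to 0.636 in batch 2. Summed over the family, miR169 was higher at 40DAF in batch 1 (652 and 957 TPM) and lower in batch 2 (990 and 534 TPM).

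miR530b rose from 4.87 TPM (2 reads) at 30DAF to 42.9 TPM (10 reads) at 40DAF in batch 1 and from no read to 44.5 TPM (6 reads) in batch 2. The mature libraries were close to each other and above both premature ones. The ratio was 8.81 (95% counting interval 1.88 to 82.7) in batch 1, while in batch 2, with no read at 30DAF, the interval began at 0.917 and the change was not beyond counting error. Its log2 fold change of 2.79 (SE 0.98, limma adjusted p = 0.415) rests on these few reads, and the call was lost without any 1 of the 4 libraries compared. It held in 11 of 19 alternatives. The call was also lost with a pseudocount of 1 TPM and in voom with or without the batch as a replicate block. Scaling on the families other than miR159, miR319 and miR396 lost it as well.

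The most abundant miRNAs did not pass the threshold. miR396b, whose targets are the growth-regulating factors (GRF), had 691112 TPM at 30DAF and 657878 TPM at 40DAF in batch 1. It had 353950.0 and 255018 TPM in batch 2. The level was lower at 40DAF in both batches, and the batches lay further apart than the stages. Of the TPM of the 71 sequences, miR396b took 78.2% and 75.5% at 30 and 40DAF in batch 1 and 69.9% and 51.0% in batch 2. miR159a, which acts on MYB transcription factors, had 157690 and 186874 TPM in batch 1 and 118266 and 194364 TPM in batch 2, or 17.9% and 21.4%, and 23.4% and 38.9%. Both mature libraries were above both premature ones, and miR396b over miR159a went from 4.38 to 3.52 in batch 1 and from 2.99 to 1.31 in batch 2. The log2 fold change was -0.27 (SE 0.67) for miR396b and 0.48 (SE 0.54) for miR159a. Their counting intervals excluded 1 in both batches at these depths, which says nothing of the spread between fruits. miR396a/c/d, which differs from miR396b by T21G with miR396a/c/d first, had 5850 and 4911 TPM in batch 1 and 3483 and 4255 TPM in batch 2, with a log2 fold change of 0.02 (SE 1.75).

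miR164c/d, which targets NAC transcription factors, had 7475 TPM at 30DAF and 9840.0 TPM at 40DAF in batch 1 and 5843 and 10310.4 TPM in batch 2. Both mature libraries were above both premature ones, with ratios of 1.32 (95% counting interval 1.25 to 1.39) and 1.76 (1.60 to 1.94). The log2 fold change of 0.61 (SE 0.83, limma adjusted p = 0.877) did not pass. Outside the miR159, miR319 and miR396 families it held 55.5% of the TPM at 40DAF against 43.3% at 30DAF in batch 1, and 39.3% against 31.5% in batch 2. Its relative miR164a, which differs by T21A counted with miR164a first, was nearly level, with ratios of 1.06 and 1.07.

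Because TPM are shares of a library, the scaling of the libraries bears on every change. The families other than miR159, miR319 and miR396 summed to 17284 and 17728 TPM at 30 and 40DAF in batch 1 and to 18558 and 26247 TPM in batch 2. With each library scaled on these families the median log2 fold change of the 71 sequences moved from -0.06 to -0.25, and 5 sequences passed, 2 higher and 3 lower, with miR530b and miR169p/q/s lost. All 7 sequences past the threshold kept their sign under this scaling and under the median ratio.

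Among the 42 sequences with over 3 reads in at least 1 library of each batch, 3 had opposite changes in the batches at 1 or more on the log2 scale, miR319a/b, miR167d/f and miR7130. miR319a/b, which acts on TCP transcription factors, had 7439 and 2020 TPM (3057 and 471 reads) at 30 and 40DAF in batch 1. In batch 2 it had 6652 and 13816 TPM (699 and 1864 reads). The premature libraries were close, and the mature libraries lay on either side of them. The level was 3.68-fold lower (95% counting interval 3.34 to 4.07) in batch 1 and 2.08-fold higher (1.90 to 2.27) in batch 2. miR319c/d, which differs from it by C20T with miR319a/b first, had 2998 and 1132 TPM in batch 1 and 3740 and 4388 TPM in batch 2.

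miR167d/f, which acts on auxin response factors, had 333 and 163 TPM (137 and 38 reads) in batch 1 and 38.1 and 126 TPM (4 and 17 reads) in batch 2. The premature libraries lay further apart than the mature ones, so that the opposite changes started from unlike levels. The 24 nt sequence miR7130 had 4 reads and none in batch 1 and none and 6 reads in batch 2. A further 24 nt sequence, miR7129, had 903 and 678 TPM in batch 1 and 2836 and 5581 TPM in batch 2. The last of the 24 nt sequences, miR1863, had at most 1 read in batch 1 and 13 and 50 reads in batch 2.

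The remaining groups are given by their conserved targets. Among the miRNAs of auxin signalling, miR393a/b/c, which acts on the TIR1 and AFB receptors, was higher in both batches, with ratios of 1.35 (95% counting interval 1.01 to 1.80) and 1.70 (1.11 to 2.65), while no sequence of the 8 in this group passed the threshold. The 4 sequences of miR171, which acts on GRAS transcription factors, had at most 6 reads in each library. Both miRNAs of the silencing machinery were lower at 40DAF in both batches. miR162, which acts on DICER-LIKE 1, had 1793 and 811 TPM in batch 1 and 2446 and 1757 TPM in batch 2, with a log2 fold change of -0.81 (SE 0.51). miR168, which acts on ARGONAUTE 1, had 43.8 and 21.5 TPM (18 and 5 reads) in batch 1 and 57.1 and 14.8 TPM (6 and 2 reads) in batch 2. The counting intervals of miR168 included 1 in both batches, and its log2 fold change was -1.27 (SE 1.78). Neither miR162 nor miR168 passed the threshold. Of the 9 sequences of phosphate and sulfate homeostasis none passed, and 3 were lower in both batches among the 5 with enough reads. The most abundant of them, miR2111a/b, had 621 and 609 TPM in batch 1 and 542 and 1223 TPM in batch 2. miR394a/b, which acts on an F-box gene of the meristem in Arabidopsis, was 1.68-fold lower (1.21 to 2.37) in batch 1 and 1.71-fold lower (1.23 to 2.39) in batch 2. It had 353 and 210.2 TPM in batch 1 and 837 and 489 TPM in batch 2, so that the stages overlapped, and its log2 fold change of -0.75 (SE 0.64, limma adjusted p = 0.877) did not pass. Of the sequences with no group, miR845 and miR858 had at most 1 read at 30 or 40DAF in batch 1. In batch 2 they had 44 and 101 reads, and 8 and 21 reads, at these stages. The 2 miR477 sequences had at most 2 reads in each of the 4 libraries compared, and miR854 had none in these.

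Summed by family, 2 of 30 families (6.67%) passed the unadjusted threshold, 1 in each direction (3.33% each). miR398 fell (log2 fold change -4.60, SE 1.58, limma adjusted p = 0.344) and miR530, with a single sequence, rose (2.79, SE 1.04, limma adjusted p = 0.344). With the batch as a replicate block the limma adjusted p was 0.0621 for miR398 and 0.0854 for miR530. None passed on adjusted p values in limma or in voom, where 1 family passed unadjusted. In voom with the replicate block 3 families passed, 1 of them on adjusted p values. The miR398 call was lost without the batch 1 library of 30DAF and the miR530 call without the batch 2 library of 30DAF. The count was 5 without the batch 1 library of 40DAF, 3 of them on adjusted p values in limma, and 4 without the batch 2 one, 1 of them on adjusted p values. The miR156 family had 606 and 1883 TPM in batch 1 and 590 and 1193 TPM in batch 2, with a log2 fold change of 1.32 (SE 0.72, limma adjusted p = 0.721). The miR166 family had 635 and 77.2 TPM and 609 and 222 TPM, with a log2 fold change of -2.20 (SE 1.19, limma adjusted p = 0.721). Their premature levels were close between the batches and their mature levels lay apart from them in one direction. Of the 21 families with over 3 reads in at least 1 library of each batch, 5 were higher and 8 lower in both batches, 7 were lower in batch 1 and higher in batch 2, and 1 was the reverse. The counting intervals of 4 families (miR156, miR159, miR164 and miR393) lay above 1 in both batches, and those of 5 (miR162, miR166, miR394, miR396 and miR398) lay below 1 in both.

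**Figure D3:**
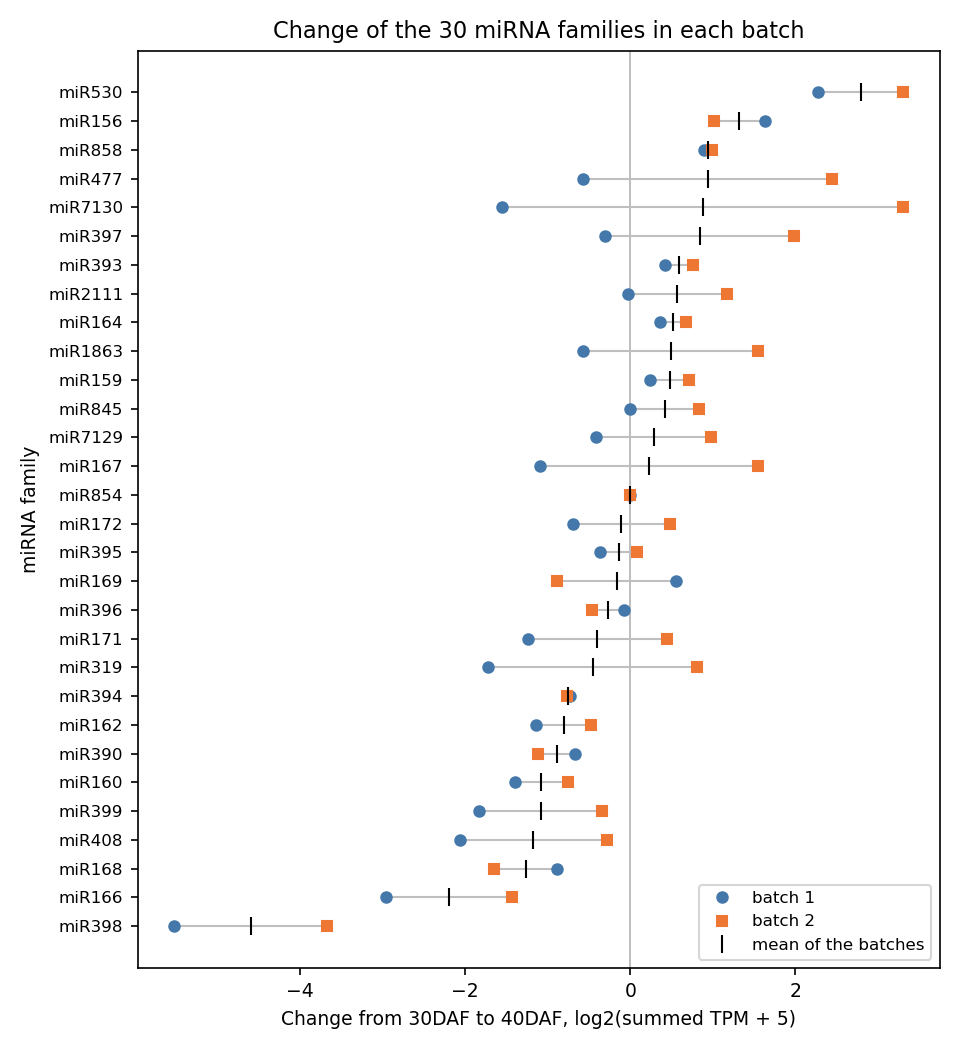
Change of the summed TPM of each of the 30 families from 30DAF to 40DAF on log2(summed TPM + 5), in batch 1 (circles) and batch 2 (squares), with a bar at their mean and families ordered by it. miR398 and miR166 lie lowest and miR530 and miR156 highest, while miR319, miR167 and miR7130 span 0.

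Whether the late change differed from the early one was tested as the difference between the change from 30 to 40DAF and that from 10 to 20DAF, which share no library. At the unadjusted threshold 4 of 71 sequences (5.63%) differed, miR156g/h, miR166a/b/c/d/f/h, miR156e and miR169e/n, and none on adjusted p values in limma or voom, where 1 passed unadjusted. The change of miR156g/h was 0.31 early and 3.60 late, a difference of 3.28 (SE 1.17, limma adjusted p = 0.614). Its early values were 6.35 and 11.1 TPM at 10 and 20DAF in batch 1 and 3.31 and 4.06 TPM in batch 2, or 2 to 4 reads. That of miR156e was -0.33 early and 2.36 late, a difference of 2.70 (SE 0.97, limma adjusted p = 0.614). The early change was 1.03 and the late one -2.28 for miR166a/b/c/d/f/h, with a difference of -3.32 (SE 1.16, limma adjusted p = 0.614). It had 124 and 197 TPM at 10 and 20DAF in batch 1 and 31.4 and 92.4 TPM in batch 2, below both 30DAF libraries. miR169e/n had no read at 30 or 40DAF, so its difference rests on the early change alone. With the replicate block 5 sequences (7.04%) differed, with miR169k and miR530b added and miR169e/n lost. The count was 2 without the batch 2 library of 20DAF and 2 without that of 30DAF.

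**Figure D4:**
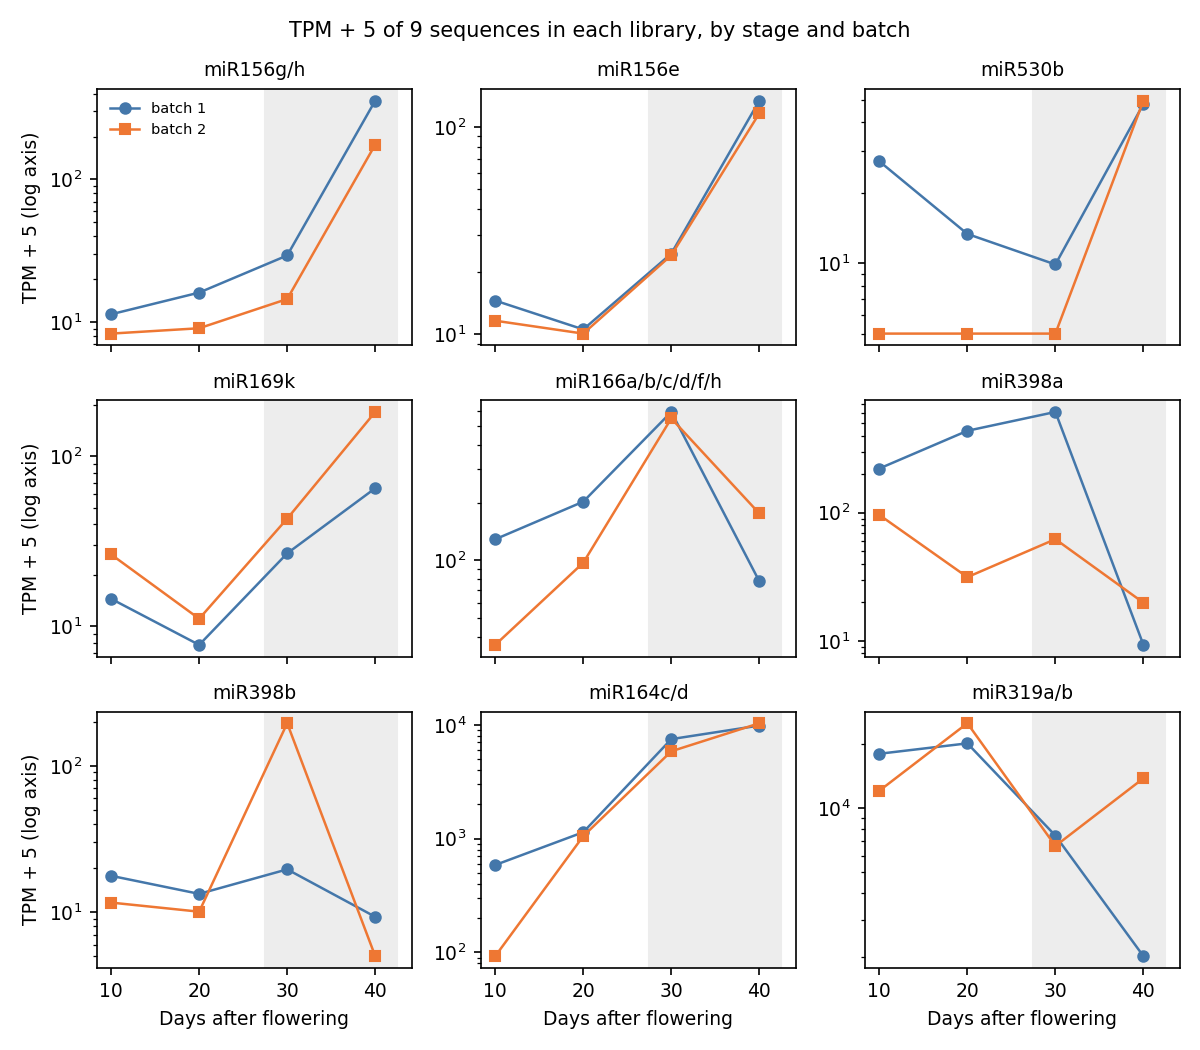
TPM + 5 on a log axis in each of the 8 libraries for 9 sequences, by days after flowering, in batch 1 (circles) and batch 2 (squares), with the interval from 30 to 40DAF shaded. miR156g/h and miR156e are highest at 40DAF in both batches, miR166a/b/c/d/f/h is highest at 30DAF in both, and miR319a/b goes down in batch 1 and up in batch 2 over the shaded interval. miR398b is also highest at 30DAF, but in batch 1 with 6 reads against 4 at 10DAF.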

How the data were processed

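Per the study's methods, the authors trimmed adapters, kept reads of 18 to 30 nt, removed matches to rRNA and tRNA and matched the rest to plant mature miRNAs of miRBase with Bowtie, allowing 1 mismatch. The deposited values, called TPM by the authors, are RPM, the reads of a miRNA over a total for its library on a fixed scale, a total that is far below the clean reads. Of the 116 names, 27 sequences carried several, and each of the 71 sequences was used once. An extra empty field in 1 line was dropped. All low values of the 4 compared libraries (27 to 33 in each) were whole multiples of 1 read within 0.1 read, which gave totals of 105077 to 410945 reads.

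Under R 4.3.3, limma 3.58.1 with a mean-variance trend was fitted to log2(TPM + 5) as 4 stages over 8 libraries, without a filter. The early libraries lend their spread. The study's threshold form (unadjusted p under 0.05, fold change over 1.5) was used beside Benjamini-Hochberg adjustment. Numbers 1 and 2 mark the batch, and deviations of same-numbered libraries correlated in 6 of 6 pairs of stages (0.352 to 0.664), so the batch was a replicate block in an alternative. Named sequences pass the threshold, change by at least 1 in both batches, in the same or opposite directions, with over 3 reads in 1 library of each, or are among the 5 highest by mean TPM, and others describe their family. Groups follow conserved targets. Members, lists and tests were chosen with earlier results of these data known. The main fit was also tried on simulated data with independent libraries, which does not cover the shared deviations of a batch. Other steps ran in Python 3.11.15 (scipy 1.17.1, pandas 2.3.3, numpy 2.4.6). The alternatives were other pseudocounts, filters, scalings, voom, every name, no trend, the compared libraries alone and each library left out. Melon-specific miRNAs and target predictions were not used here.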

Additional observations from a re-analysis of the deposited data

Results flagged for a closer look

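Among the sequences with over 3 reads in at least 1 library of each batch, the change from 30 to 40DAF went in opposite directions in the batches for 3, each by at least 1 on log2(TPM + 5). The batch 2 change minus the batch 1 change was 2.93 for miR319a/b, 2.62 for miR167d/f and 4.87 for miR7130. With 1 library per stage and batch, the difference between the batches was not tested. The changes of miR319a/b were -1.88 in batch 1 and 1.05 in batch 2, and its log2 fold change of -0.41 became -1.80 and passed the unadjusted threshold without the batch 2 library of 40DAF. For miR167d/f the changes were -1.01 and 1.60, and its log2 fold change of 0.30 became 1.78 and passed without the batch 1 library of 30DAF. For miR7130, at -1.56 and 3.31, none of the libraries of 30 and 40DAF had over 6 reads. Season, sequencer and number of fruits differ between the batches and cannot be told apart.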

How the results depend on the processing

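Between 40DAF and 30DAF 7 sequences passed, and the count was 5 to 8 under 8 planned settings, 4 with only the libraries of 30DAF and 40DAF, 15 of 116 with every name counted (4 higher, 11 lower), 4 in voom on recovered reads, and 3 to 8 without each library in turn. Families passing went from 2 to 1 with a pseudocount of 1 TPM, with either filter and in voom, to 4 with the median ratio, and to 1 to 5 without each library. The sequences whose late change differed from the early one went from 4 to 10 with every name, to 1 in voom and to 2 to 6 without each library. Paired by batch as a replicate block, 7 sequences (4 higher, 3 lower), 2 families and 5 differences from the early change passed, and apart from miR169k and miR169p/q/s, and from the 3 differences named above, the block changed no other call. Without the mean-variance trend 8 sequences passed, 2 of them on adjusted p values, and 1 did so without the batch 1 library of 30DAF. Differences from the early change passed on adjusted p values for 3 sequences without the batch 1 library of 10DAF and for 2 without the batch 2 one. No call reversed its direction. The correlation of the batches across sequences was 0.132 and 0.441 with pseudocounts of 1 and 20 TPM and 0.483 without low sequences. A library left out at 30 or 40DAF leaves 1 library at that stage, assumed to vary like the other stages. Voom was chosen after seeing the data, since the planned edgeR fits were not run. Depth limits the changes of low sequences, as 3 reads are 7.30 to 28.6 TPM.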
